A study of Arabidopsis thaliana with 14 samples.

Results

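Root tips of the Arabidopsis thaliana line AtIPT8/pga22 that had been in estradiol for 12 h were compared with root tips of the same line in liquid medium alone for 12 h. The labels of treatment and time choose 6 of the 14 arrays of the series, 3 of estradiol 12 h and 3 of control 12 h. The series addresses crosstalk between auxin and cytokinin in the primary root apex. All its arrays are of this 1 line in the Wassilewskija background, and the labels describe every sample as carrying a T-DNA knock out of IPT8. In this line IPT8 is known to be under a promoter that estradiol induces. Seedlings had grown for 7 days on upright agar plates, and tips of 5 mm were cut from primary roots. The estradiol 12 h group received liquid medium with 5 µM 17-beta-estradiol directly on the plates, and the control 12 h group received the medium without it. Beside these stand 2 arrays of 5 µM trans-zeatin, an active cytokinin, at 12 h, 2 arrays of 5 µM estradiol at 24 h and 2 control arrays at 24 h. The 2 arrays of trans-zeatin at 24 h entered the estimate of the spread, the offset, the filter and the principal components, but no comparison here. No line without the inducible construct was analysed here and IPT8 has no named probe set, so effects of estradiol itself and effects of IPT8 cannot be told apart. Nothing in the labels says that replicates were separate cultures, and p-values then measure only the spread between these samples, which may be technical. A root tip holds many cell types, and fewer cells of a type and less RNA per cell cannot be told apart in these bulk samples.

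Isopentenyltransferases such as IPT8 carry out the first committed step of cytokinin synthesis. Cytokinins are sensed by membrane histidine kinases, which pass phosphate through carrier proteins to type-B response regulators, transcription factors that switch on the type-A response regulators; the type-A proteins dampen the same pathway. In the root tip, cytokinin is known to promote the passage of meristem cells into differentiation and to act against auxin, which keeps the meristem dividing and starts lateral roots.

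The values are deposited signals of probe sets, each a group of short probes, and folds are ratios of the signal plus 6.3, the 20th percentile of all values. A probe set was called where limma's Benjamini-Hochberg adjusted p was under 0.05. Within the groups, Spearman's rho between arrays ranged from 0.944 to 0.962, and between estradiol 12 h and control 12 h arrays from 0.936 to 0.952. Estradiol 12 h replicate 1 (32.04) and control 12 h replicate 3 (37.06) lay away from the rest on the second principal component, which held 13.6% of the variance, and are called the outlying arrays below. The actin 3'/5' ratio, the signal of control probe sets at the 3' end of the actin transcript over that at its 5' end, is a measure of RNA integrity. It was 3.305, 2.8 and 2.369 in estradiol 12 h arrays, against 3.577, 4.927 and 3.235 in control 12 h arrays. That is a log2 difference of -0.46 (exact permutation test, two-sided, p = 0.2; the smallest p that 3 against 3 arrays can give is 0.1). A second pair of actin control probe sets differed by -0.68 (exact permutation p = 0.1), with 20.49, 18.44 and 12.88 in estradiol 12 h and 29.51, 27.09 and 25.25 in control 12 h arrays, which do not overlap. The part of these ratios in the results below was not tested other than by taking them as covariates.

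After 12 h of estradiol, 368 probe sets had risen and 394 had fallen against control 12 h, of 15605 measured. These 762 calls are 4.88% of the measured probe sets, 2.36% higher and 2.52% lower. Of the risen, 197 changed at least 2-fold, 39 at least 4-fold and 8 at least 8-fold, and of the fallen 151, 29 and 7. The median called-higher probe set had a signal of 191 with estradiol and 78 in control (median log2 change 1.03), and the median called-lower probe set 102 with estradiol and 214 in control (median -0.87). Exactly 1 gene is named for 177 of the risen and 205 of the fallen probe sets, several genes for 5 and 7, and no gene for 186 and 182. The 3 estradiol arrays did not overlap the 3 control arrays for 366 of the 368 risen and all 394 fallen probe sets, against 24.8% of all measured probe sets. The calls were made from these same arrays, so such separation largely follows from the call. It is a description and no further support, here and in the called genes below. The count of calls depended on single arrays: it was 506 and 505 without estradiol replicate 1 or 3, and 419 and 458 without control replicate 1 or 2. A fit of the 6 compared arrays alone gave 397 calls; it was 424 without both outlying arrays and 173 with the actin 3'/5' ratio as a covariate.

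**Figure D1:**
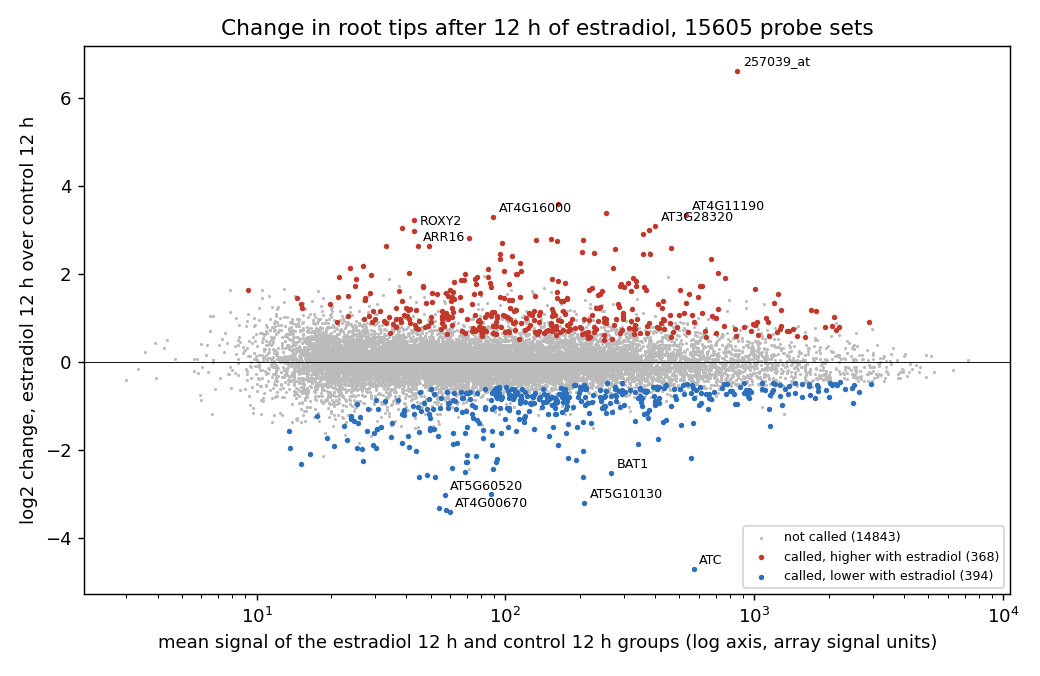
Log2 change of each measured probe set, estradiol 12 h minus control 12 h (vertical), against the mean signal of the 2 groups on a log axis (horizontal). The 368 called higher and the 394 called lower are coloured, the other probe sets are grey, and the named points include 257039_at at 6.61 and ATC at -4.72.

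Both measured type-A response regulators rose, beside 2.36% of all measured probe sets, and they had been near the bottom of the signal range in control. A probe set counted as measured only where at least 2 of the 14 arrays exceeded 23. No control array of these 2 genes did, so they were measured only through treated arrays. A member unchanged at that level would not have been counted. RR16, which is ARR16, had signals of 105, 59.2 and 79.4 in estradiol 12 h arrays, against 5.31, 6.34 and 11.6 in control 12 h arrays. Every estradiol array was above every control array (6.21-fold, log2 change 2.63 ± 0.22 SE, adjusted p = 1.9e-05). ARR15 had 24.2, 30.8 and 16.4 with estradiol, against 4.08, 13.7 and 1.68 in control. The groups lay side by side without overlap, and the change was 1.32 ± 0.34 (2.49-fold, adjusted p = 0.04). The call of ARR15 ended without estradiol replicate 1 or 2 or control replicate 1 or 3 (adjusted p from 0.098 to 0.13), and also with an offset of 1, with no filter, after quantile normalization, with only the compared arrays, without both outlying arrays and with the second actin ratio as a covariate (0.051 to 0.22). Of the other steps of the pathway little was measured. The 2 probe sets of cytokinin oxidases and glucosyltransferases had log2 changes of 0.01 and 0.5 and were not called. Of them 1 had an unadjusted limma p under 0.05, as did 3244 of all 15605 probe sets. No receptor, phosphotransfer protein, type-B regulator or synthesis gene was measured through a named probe set.

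Of 5 measured genes that conjugate or oxidise auxin, 1 rose, 1 fell and 3 were not called, beside 2.36% called higher and 2.52% called lower of all measured probe sets. AT1G14120 had 333, 164 and 210 with estradiol, against 42.6, 27.4 and 142 in control. The lowest estradiol array exceeded the highest control array (log2 change 1.89 ± 0.43, adjusted p = 0.022). WES1 (GH3.5), an enzyme that conjugates auxin with amino acids, had 101, 105 and 118 with estradiol, against 210, 281 and 150 in control, again without overlap (-0.91 ± 0.19, adjusted p = 0.016). GH3.3, an enzyme of the same family, had 270, 300 and 556 with estradiol, against 1010, 1270 and 276 in control. Control replicate 3 lay among the estradiol arrays, and GH3.3 was not called (-0.98 ± 0.42). IAA30, 1 of 3 measured Aux/IAA repressors of auxin response, had 39.3, 52 and 64.9 with estradiol, against 22.1, 29.3 and 17.9 in control (1.98-fold, adjusted p = 0.028). IAA18 and IAA34 both had a log2 change of -0.14 with overlapping arrays. The tryptophan synthesis gene AT2G04400 had 716, 408 and 442 with estradiol, against 261, 295 and 321 in control, and was called (0.78 ± 0.19, adjusted p = 0.031). All 4 of these calls ended without 1 array: AT1G14120 without estradiol replicate 1 or 3 or control replicate 1 or 2, IAA30 without estradiol replicate 2 or 3 or control replicate 1 or 3, AT2G04400 without estradiol replicate 1 or control replicate 1 or 2, and WES1 without control replicate 1 or 2 (adjusted p from 0.052 to 0.11 over them). They also ended with only the compared arrays and with the actin ratio as a covariate (0.07 to 0.3).

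The largest rise was that of 257039_at, a probe set with no gene named here. Its signals were 1920, 1790 and 1400 in estradiol 12 h arrays, against 15.4, 7 and 11.9 in control 12 h arrays. With estradiol it was among the bright probe sets of the array, and in control it was near the offset (97.5-fold, log2 change 6.61 ± 0.23, adjusted p = 1.3e-09). At 24 h it had 1770 and 2190 with estradiol, against 8.94 and 3.67 in control (log2 change 7.33). In trans-zeatin 12 h arrays it had 14 and 16.4, close to the control 12 h arrays, and its log2 change with trans-zeatin was 0.31. The second unnamed probe set by size of rise, 259388_at, had 280, 357 and 275 with estradiol, against 9.69, 30.3 and 22.2 in control (12.1-fold, adjusted p = 8.9e-05), and the trans-zeatin change beside it was 3.65 on the log2 scale, close to its 3.59 with estradiol. Both changes are against the same control arrays. Of the unnamed probe sets that fell most, 261576_at had 2.19, 1.55 and 14.3 with estradiol, against 114, 99.9 and 112 in control. The other, 262883_at, had 3.83, 2.36 and 4.65 with estradiol, against 61.8, 69.8 and 183 in control. Both were at or below the dim end of the range with estradiol (10.4- and 10.1-fold lower), and the call of 261576_at ended with the second actin ratio as a covariate (adjusted p = 0.08). At 24 h, 262883_at was dim in both groups, with 5.5 and 0.852 with estradiol and 2.26 and 2.85 in control.

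The 15 named genes with the largest rises, and the 15 with the largest falls, were chosen only among called probe sets whose arrays do not overlap. Separate arrays in these genes thus follow from the choice. Among the 15 with the largest rises, AT4G11190, of the dirigent family that steers the coupling of lignan precursors, came first. It had 936, 1130 and 812 with estradiol, against 34.6, 134 and 143 in control. The estradiol arrays were several times above the highest control array (10.1-fold, log2 change 3.33 ± 0.41, adjusted p = 0.00035). AT4G16000 had 121, 144 and 236 with estradiol, against 3.71, 14.1 and 17.9 in control (9.78-fold, adjusted p = 3.8e-05). AT4G35725 had 108, 62.4 and 48 with estradiol, against 0.433, 0.642 and 10 in control (8.24-fold). ROXY2, a glutaredoxin of the class that acts with TGA transcription factors, had 62.9, 81.4 and 99.3 with estradiol, against 4.43, 1.94 and 8.6 in control (7.87-fold, adjusted p = 9e-05). These 3 genes had control signals of 17.9 or less, where the offset makes the fold understate the ratio of the signals.

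AT3G28320 had 681, 849 and 629 with estradiol, against 53.2, 89.1 and 102 in control (8.46-fold, log2 change 3.08 ± 0.22, adjusted p = 3e-06). The gene beside it on the chromosome, AT3G28310, had 146, 173 and 197 with estradiol, against 22.7, 17 and 23.4 in control (6.51-fold). Neither gene's arrays overlapped. AT1G72140, of the NPF family of nitrate and peptide transporters, had 532, 166 and 132 with estradiol, against 31.9, 21.3 and 30.2 in control. Estradiol replicate 1 was more than 3 times the other estradiol arrays, and all 3 exceeded control (6.93-fold, adjusted p = 0.0049). AT5G26260, of a family with a TRAF-like domain, had 326, 462 and 298 with estradiol, against 36.1, 44.3 and 63.7 in control (6.81-fold). AT5G55050, of the GDSL lipase family, had 920, 514 and 501 with estradiol, against 138, 144 and 62.5 in control (5.46-fold). AT3G10080, of the germin and cupin family, had 328, 396 and 625 with estradiol, against 91.7, 99.3 and 92.3 in control (4.36-fold). In these 3 genes, too, the lowest estradiol array was above the highest control array. The remaining 4 were AT3G28600 (6.21-fold), AT1G14960 (5.92-fold), AT5G59080 (5.48-fold) and AT1G28100 (4.75-fold), with control signals from 1.22 to 93.1 and estradiol signals from 45.7 to 694.

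The largest fall was that of ATC, the Arabidopsis centroradialis gene, which is related to the floral repressor TFL1. It had 15, 39.5 and 67.5 with estradiol, against 951, 1030 and 1330 in control. Bright in control, ATC was with estradiol about as bright as the median probe set of an array (26.4-fold lower, log2 change -4.72 ± 0.46, adjusted p = 6.5e-05). AT4G00670, of the remorin family of membrane-associated proteins, had 3.71, 0.752 and 12.5 with estradiol, against 80.8, 132 and 129 in control (10.7-fold lower). AT5G10130, of the pollen Ole e 1 protein family, had 31.6, 35 and 34.5 with estradiol, against 278, 332 and 534 in control (9.34-fold lower, adjusted p = 1.4e-06). Its estradiol arrays lay within a few units of each other, while the control arrays spread widely. AT5G60520 had 3.04, 5.94 and 9.83 with estradiol, against 54.3, 80.3 and 189 in control (8.23-fold lower), and AT4G14020 had 4.02, 6.9 and 23.8 with estradiol, against 74.9, 103 and 100 in control (6.12-fold lower).

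The other 10 named genes that fell most ranged from 4.24- to 6.1-fold lower. BAT1, an acyltransferase that acts on brassinosteroids, had 54, 67.8 and 108 with estradiol, against 496, 421 and 455 in control (5.79-fold lower, adjusted p = 1.9e-05). PDF2.5, a defensin-like peptide, had 61.4, 85.5 and 46.5 with estradiol, against 287, 321 and 353 in control (4.72-fold lower). The highest estradiol array of either gene was well below the lowest control array. ATPMEPCRD, a pectin methylesterase, had 29.9, 18.9 and 16.1 with estradiol, against 175, 74.9 and 217 in control (5.44-fold lower). sks15, of the SKU5-similar proteins of the cell surface, had 2.02, 8.82 and 8.67 with estradiol, against 38.7, 50.7 and 160 in control (6.1-fold lower, adjusted p = 0.012). Control replicate 3 was the highest of the 6 arrays for both, and without it sks15 was no longer called (adjusted p = 0.052). AT5G62340, of the invertase and pectin methylesterase inhibitor family, had 7.51, 18.7 and 11.9 with estradiol, against 43.5, 87.4 and 244 in control (5.71-fold lower, adjusted p = 0.01). AT1G73630, of the EF-hand calcium-binding family, had 22.4, 13.9 and 23.1 with estradiol, against 109, 108 and 143 in control (4.87-fold lower), and its chromosomal neighbour AT1G73620, named after its values were seen, fell 4.05-fold. The remaining 4 were AT2G48090 (4.88-fold lower), the BAHD acyltransferase gene AT4G15390 (4.62-fold), AT5G54370 (4.57-fold) and AT5G66815 (4.24-fold).

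All 30 of these genes kept their direction under every setting tried in which they were measured. With the actin ratio as a covariate 24 of the 30 were still called. AT1G72140, AT1G14960, sks15, AT2G48090, AT4G15390 and AT5G66815 were not (adjusted p from 0.054 to 0.2). With the second actin ratio as a covariate 22 of the 30 were still called.

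**Figure D2:**
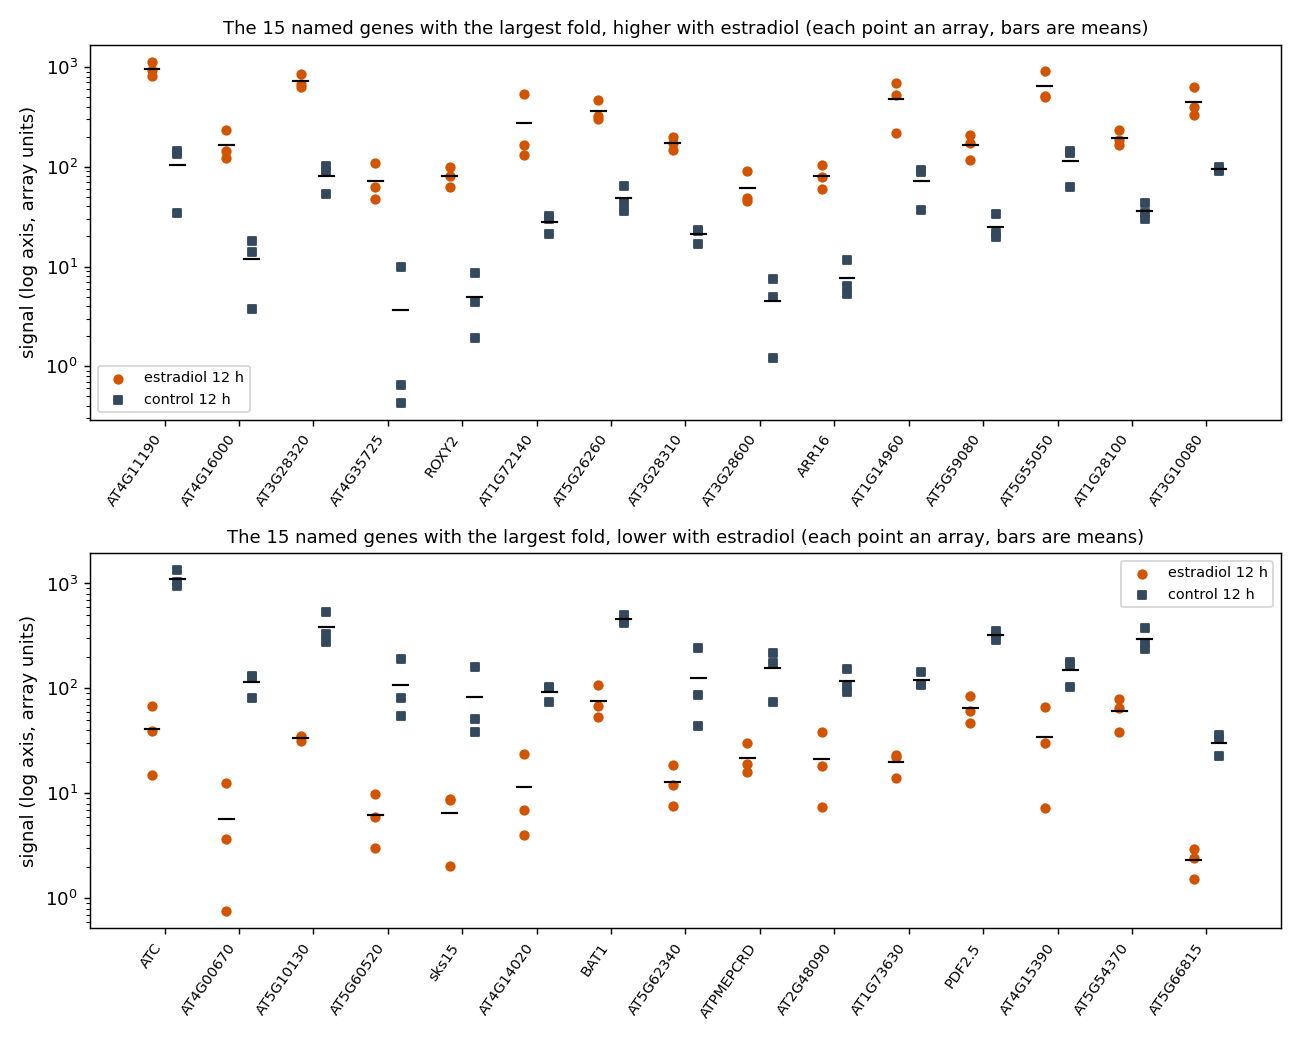
Signal on each array, on a log axis, of the 15 named genes with the largest rises and the 15 with the largest falls, with estradiol 12 h and control 12 h arrays as separate symbols. The 30 genes were chosen among called probe sets whose estradiol and control arrays do not overlap, so separate ranges follow from the choice. The ranges lie widest apart in ATC (15 to 67.5 with estradiol, 951 to 1330 in control).

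Among genes for making ribosomes all calls were falls, of at most 2.08-fold, beside 2.36% called higher and 2.52% called lower of all measured probe sets. Of 121 measured genes of cytosolic ribosomal proteins, 31 fell, 0 rose and 90 were not called; 118 had a log2 change below 0, and the median was -0.42, against -0.00 over all measured probe sets. The median signal over these genes was 1070, 1090 and 954 in estradiol 12 h arrays, against 1450, 1410 and 1450 in control 12 h arrays. All 3 estradiol arrays were below all 3 control arrays. AT1G07070 had 114, 98.2 and 125 with estradiol, against 214, 192 and 216 in control (-0.85 ± 0.16, adjusted p = 0.0071). AT4G29410 had 798, 795 and 639 with estradiol, against 1130, 1220 and 1240 in control (-0.69 ± 0.13, adjusted p = 0.0082). AT4G34555 (-0.80) and AT1G23410 (-1.02) completed the 4 lowest p-values, and the arrays of none of these 4 overlapped. PGY1, ribosomal protein L10a, named after its values were seen, had 1270, 1670 and 1250 with estradiol, against 2420, 2220 and 2000 in control (-0.67 ± 0.16, adjusted p = 0.025), a call that ended without estradiol replicate 1 or 3 or control replicate 1 or 2 (0.07 to 0.099). This list was added after results were seen. Beside it, of 467 other probe sets with a mean signal of at least 1000, 5.35% fell (median -0.02). Of the 68 ribosomal protein genes that bright 23.5% fell (median -0.40), and of the 53 dimmer ones 28.3% (median -0.51); the part of signal brightness in the result was not tested.

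Of 27 measured genes of ribosome assembly, which process and fold ribosomal RNA in the nucleolus, 11 fell, 0 rose and 16 were not called, with a median of -0.56 and 25 below 0. Their median signal was 112, 134 and 144 with estradiol, against 173, 203 and 212 in control. AT4G04940 had 71.1, 66.3 and 56.6 with estradiol, against 124, 129 and 176 in control (-1.06 ± 0.17, adjusted p = 0.0023). AT3G49990 had 112, 83.3 and 129 with estradiol, against 222, 194 and 212 in control (-0.93 ± 0.16, adjusted p = 0.0042). The estradiol arrays were lower throughout in both, and AT4G25730 (-0.77) and AT5G08180 (-0.67) also fell, the last with a call that ended without estradiol replicate 1 or control replicate 2 (adjusted p from 0.051 to 0.056). The number of ribosomal protein genes called lower was 14 without estradiol replicate 1, 19 without replicate 2 and 7 without replicate 3, and 7, 14 and 7 without control replicates 1, 2 and 3; it was 4 without both outlying arrays, and with the actin ratio as a covariate limma called 0, with 39 of the 121 at an unadjusted p under 0.05. The assembly genes gave 4, 6 and 7 calls without estradiol replicates 1, 2 and 3, and 5, 4 and 5 without control replicates 1, 2 and 3, and 2 with that covariate. With the second actin ratio as a covariate limma called 0 of the 121 and 0 of the 27, with 34 and 18 at an unadjusted p under 0.05. Of all 15605 probe sets, 2241 had an unadjusted p under 0.05 with the actin ratio as a covariate and 1898 with the second. At 24 h 3 of the 121 ribosomal protein genes were called (median -0.33) and 0 of the 27 assembly genes by limma (median -0.23, 6 at an unadjusted p under 0.05), while the medians at trans-zeatin 12 h were -0.56 and -0.48. The trans-zeatin medians are against the same control 12 h arrays as the estradiol 12 h medians, so the 2 treatments are not independent here. Over all measured probe sets 2.36% were called higher and 2.52% lower at 12 h, and 2.28% and 1.53% at 24 h. At 24 h limma gave 2858 of all 15605 an unadjusted p under 0.05.

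**Figure D3:**
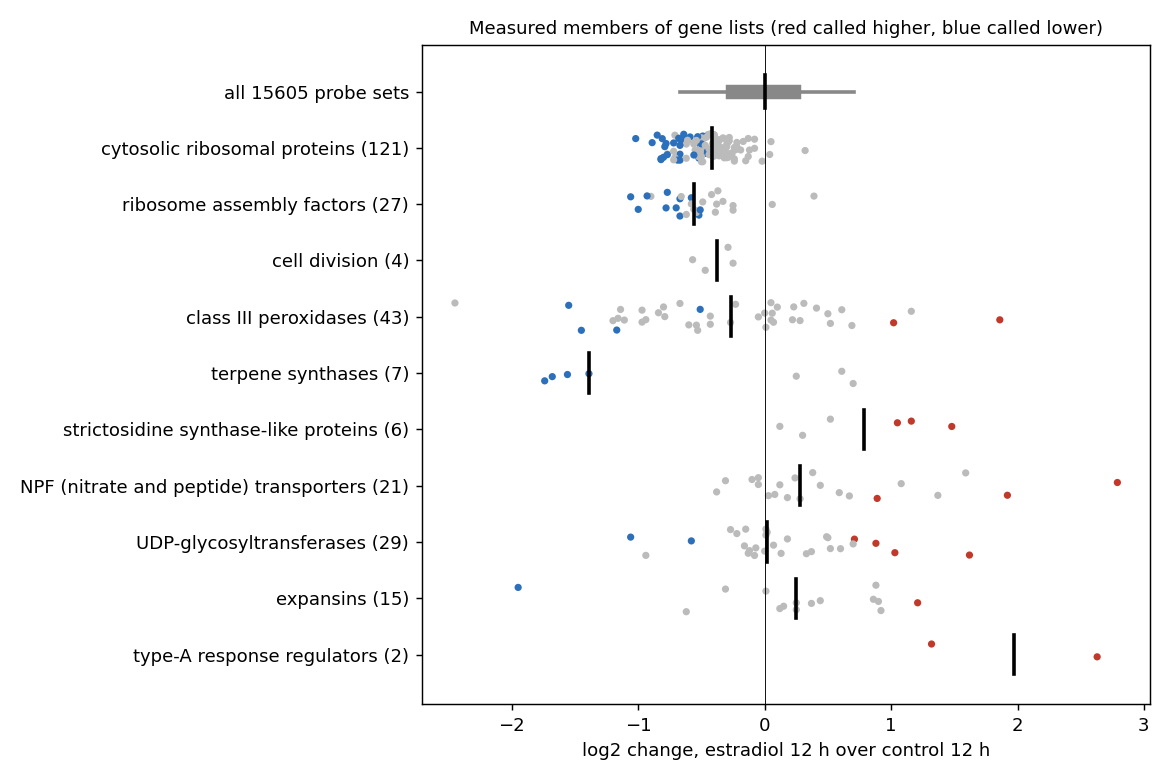
Log2 change at 12 h, estradiol minus control, of every measured gene of each gene list, 1 point per gene with called genes coloured and the list median as a black bar; for all 15605 probe sets the thick grey bar spans the 25th to the 75th percentile and the thin one the 5th to the 95th. The 121 ribosomal protein genes (median -0.42) and 27 assembly genes (median -0.56) lie almost wholly below 0, the 6 strictosidine synthase-like genes lie above 0, and the other lists of enzymes and transporters have members on both sides of 0.

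Among enzymes of specialised metabolism, 4 of 7 measured terpene synthases fell and 3 of 6 measured genes similar to strictosidine synthase rose. Both lists were added after results were seen, and over all measured probe sets 2.36% rose and 2.52% fell. The terpene synthase list had a median of -1.39, and its 3 members that were not called had log2 changes above 0, up to 0.70. AT3G29410 had 15, 42.1 and 48.7 with estradiol, against 87.7, 115 and 179 in control (3.33-fold lower, adjusted p = 0.0071). AT1G31950 had 24.9, 57 and 34.9 with estradiol, against 127, 89.4 and 156 in control (2.94-fold lower). The other called members, AT1G33750 (3.2-fold lower) and AT1G70080 (2.62-fold lower), likewise had no overlapping arrays. The strictosidine synthase-like list had a median of 0.78, and its 3 members that were not called were above 0 as well. The neighbours AT3G57010 and AT3G57020 had 586, 818 and 872 and 841, 803 and 991 with estradiol, against 366, 291 and 434 and 271, 280 and 389 in control (2.06- and 2.8-fold, adjusted p = 0.0049 and 0.00072). AT3G57030, the next gene along, had overlapping arrays and was not called (0.30 ± 0.19), and AT1G74010 rose 2.23-fold. Single arrays ended the calls of AT1G33750 (estradiol replicate 1 or 3, control replicate 3), AT1G70080 (estradiol replicate 2 or 3, any control replicate) and AT1G74010 (estradiol or control replicate 1), with adjusted p from 0.051 to 0.084. With the actin ratio as a covariate AT3G29410 and AT3G57020 stayed called and the others named here did not. The second actin ratio as a covariate ended the call of AT3G57020 (adjusted p = 0.062) and left 1 terpene synthase called.

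Of 43 measured class III peroxidases, enzymes that build and loosen cell walls, 2 rose, 4 fell and 37 were not called (median -0.27), beside 2.36% called higher and 2.52% called lower of all measured probe sets. AT4G33420 had 255, 270 and 279 with estradiol, against 674, 822 and 740 in control (2.73-fold lower, log2 change -1.45 ± 0.13, adjusted p = 3.8e-05). Prx37 had 264, 223 and 192 with estradiol, against 506, 546 and 484 in control (2.24-fold lower). AT2G34060 had 94.3, 105 and 133 with estradiol, against 25.6, 22.2 and 29.8 in control (3.62-fold higher, adjusted p = 0.00034). The arrays within each group lay close together in all 3 of these genes. AT5G06730 rose as well, by 2.03-fold, a call that ended without both outlying arrays and with the actin ratio as a covariate (adjusted p = 0.077 and 0.13). AT3G49960, with the lowest change of the list (-2.45 ± 0.67), had 2.81, 52.9 and 14.5 with estradiol, against 88.6, 110 and 161 in control, and was not called (adjusted p = 0.052). The falls numbered 2 without control replicate 1 or 2. With the second actin ratio as a covariate the calls of AT2G34060, Prx37 and AT5G06730 ended (adjusted p = 0.075, 0.1 and 0.27). Of the 43, that fit called 0 higher and 1 lower. At 24 h 9 of the 43 were called, beside 2.28% called higher and 1.53% called lower of all measured probe sets.

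Of 21 measured NPF transporters 3 rose and none fell (median 0.28), while over all measured probe sets 2.36% rose and 2.52% fell. Beside AT1G72140 these were GTR2, which carries glucosinolates, and AT3G45680. GTR2 had 685, 489 and 617 with estradiol, against 317, 244 and 409 in control (1.85-fold, adjusted p = 0.021). AT3G45680 had 56.7, 151 and 201 with estradiol, against 6.23, 50.9 and 46.9 in control (3.78-fold, adjusted p = 0.048). Both were higher on every estradiol array, and both calls ended without 1 array (GTR2 without estradiol replicate 1 or 3 or control replicate 1 or 2, AT3G45680 without estradiol replicate 2 or 3 or control replicate 1; 0.062 to 0.16). AT3G45700 had 154, 327 and 178 with estradiol, against 36.9, 37.5 and 183 in control, where control replicate 3 lay within the estradiol range, and was not called (1.59 ± 0.49).

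The lists of enzymes that loosen or rebuild the wall had few called members, beside 2.36% called higher and 2.52% called lower of all measured probe sets. Of 15 measured expansins 1 rose (2 without control replicate 3), 1 fell and 13 were not called; 12 were above 0 (median 0.25), and 7 had an unadjusted p under 0.05, as did 3244 of all 15605 probe sets. EXLB1, an expansin-like protein, had 11.6, 12.8 and 13.9 with estradiol, against 80.1, 79.8 and 47.7 in control (3.87-fold lower, adjusted p = 0.0022). EXPB5 had 24.8, 20.1 and 26 with estradiol, against 5.89, 9.6 and 4.84 in control (2.31-fold, adjusted p = 0.021). EXPA4 (0.92 ± 0.26) and EXPA8 (0.88 ± 0.26) were higher on every estradiol array and not called (adjusted p = 0.056 and 0.069). Of 8 xyloglucan endotransglucosylases 1 fell: XTH19 had 184, 345 and 194 with estradiol, against 477, 485 and 442 in control (1.99-fold lower, adjusted p = 0.045). Of 2 pectin methylesterases and inhibitors on the list limma called 0 (log2 changes -0.87 and -0.52, 1 at an unadjusted p under 0.05). The measured members of that list do not include ATPMEPCRD and AT5G62340, which are described above among the largest falls. Of 17 glycosyl hydrolases 1 rose, and 13 were above 0 (median 0.27): GH9C2, an endoglucanase, had 370, 357 and 483 with estradiol, against 202, 173 and 203 in control (2.04-fold, adjusted p = 0.0025). The calls of EXPB5 (estradiol replicate 1 or 3, control replicate 1 or 3) and XTH19 (estradiol replicate 1 or 3, any control replicate) ended without 1 array (0.065 to 0.14). The actin ratio as a covariate ended all 4 of these calls (0.069 to 0.2).

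Conjugating and oxidising enzymes were mixed, and their counts stand beside 2.36% called higher and 2.52% called lower of all measured probe sets. Of 29 measured UDP-glycosyltransferases 4 rose and 2 fell (median 0.02); UGT71C3 had 27.7, 38.7 and 41.8 with estradiol, against 82.8, 73 and 87.8 in control (2.08-fold lower, adjusted p = 0.0025). UGT76E12 had 25, 13 and 13.9 with estradiol, against 1.33, 1.19 and 1.1 in control (3.07-fold, adjusted p = 0.039), and UGT73B1 and UGT73C7 rose 2.05- and 1.64-fold. Of 8 cytochrome P450 genes 1 rose: CYP84A4, an enzyme of alpha-pyrone synthesis, had 89.4, 80 and 71.7 with estradiol, against 46.6, 27.9 and 29.4 in control (2.15-fold, adjusted p = 0.0057). Of 11 glutathione transferases 1 rose: GSTU26 had 511, 314 and 258 with estradiol, against 86.2, 109 and 165 in control (2.88-fold, adjusted p = 0.033), while GSTU20 (-1.19 ± 0.37), GSTU22 (-0.50 ± 0.23) and GSTU18 (0.51 ± 0.31) had overlapping arrays and were not called. Of 4 lectin genes 2 rose: JAL34, a jacalin-related lectin among the brightest genes here, had 3950, 3510 and 3790 with estradiol, against 1720, 1640 and 2780 in control (1.88-fold, adjusted p = 0.0087), and its neighbour JAL33 had 173, 87.5 and 98.5 with estradiol, against 26.5, 23.8 and 65.3 in control (2.92-fold, adjusted p = 0.017). No array of one group reached the other in any of the genes called here. Single arrays ended the calls of UGT76E12 and UGT73B1 (estradiol replicate 2 or 3, any control replicate), UGT73C7 (estradiol replicate 2 or 3, control replicate 1 or 3), GSTU26 (estradiol replicate 1 or 2, control replicate 1 or 2) and JAL33 (estradiol replicate 1, control replicate 1 or 2), with adjusted p from 0.052 to 0.12. Of the 8 called genes, the actin ratio as a covariate left UGT71C3 called. The second actin ratio as a covariate ended the call of UGT71C3 too (adjusted p = 0.073).

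Regulators and cell division genes had few calls, beside 2.36% called higher and 2.52% called lower of all measured probe sets. Counts at an unadjusted limma p under 0.05 stand beside 3244 of all 15605 probe sets at 12 h. Of 2 measured MYB factors 1 fell: MYBC1 had 110, 89.1 and 87.5 with estradiol, against 159, 198 and 174 in control (1.8-fold lower, adjusted p = 0.018). Of 10 defensin-like and secreted peptides 1, PDF2.5, was called; CLE41, a peptide that keeps vascular stem cells undifferentiated, had 98.2, 87.5 and 71.2 with estradiol, against 52.4, 52.2 and 52.8 in control without a call (0.64 ± 0.18, adjusted p = 0.061). By limma, 0 of 4 cell division genes were called at 12 h (median -0.38, all below 0, 2 at an unadjusted p under 0.05) and 0 of 6 histone genes (median -0.44, all below 0, 2 at an unadjusted p under 0.05). Of 2 genes of lateral root initiation limma called 0 at 12 h (median -0.77, 2 at an unadjusted p under 0.05) and both at 24 h (median -1.48). Markers of cell types were scarcely measured: 2 root meristem, 2 root hair, 1 endodermis and 1 vascular gene had list medians of -0.56, -0.19, -0.06 and 0.07, none was called by limma (1 meristem and 1 root hair gene at an unadjusted p under 0.05), and no root cap, non-hair epidermis or green tissue marker was measured. The call of MYBC1 ended without estradiol replicate 2 or 3 or control replicate 2 and with the actin ratio as a covariate (adjusted p from 0.052 to 0.31).

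Other named genes, picked after their values were seen, included regulators, receptors and enzymes. LEP, an AP2-type transcription factor of leaf development, had 52.5, 54.9 and 49.7 with estradiol, against 105, 96.4 and 140 in control (2.03-fold lower, adjusted p = 0.0041). bZIP44, a transcription factor, had 77.3, 48.6 and 60.5 with estradiol, against 159, 236 and 394 in control (3.74-fold lower). NAI2, which is needed to form the endoplasmic reticulum bodies that store beta-glucosidase, had 1020, 740 and 556 with estradiol, against 323, 268 and 294 in control (2.51-fold, adjusted p = 0.0054). The groups were separate in all 3, and their calls held without each array in turn. MSRB6, a methionine sulfoxide reductase, had 326, 140 and 111 with estradiol, against 28.3, 24.5 and 65.7 in control (4.21-fold, adjusted p = 0.011). GID1B, a gibberellin receptor, had 180, 162 and 217 with estradiol, against 127, 90.3 and 116 in control (1.65-fold, adjusted p = 0.02). AZG1, a purine transporter, had 268, 129 and 129 with estradiol, against 88.5, 85.9 and 53.6 in control (2.13-fold, adjusted p = 0.025). All 3 were higher on every estradiol array. BIK1, a receptor-like kinase of immune signalling, rose 1.83-fold (adjusted p = 0.026), and CHIL, a chalcone isomerase-like protein of flavonoid synthesis, 2.78-fold (adjusted p = 0.032). AT4G28650, also listed as PXL2, a receptor kinase, had 18, 27.5 and 36.3 with estradiol, against 63.7, 68.1 and 61.6 in control (2.16-fold lower, adjusted p = 0.025). Single arrays ended the calls of MSRB6 (control replicate 2), GID1B (estradiol replicate 3, control replicate 2), AZG1 and BIK1 (estradiol replicate 1, control replicate 3), CHIL (estradiol replicate 1 or 2, control replicate 1 or 2) and AT4G28650 (estradiol replicate 1 or 2, any control replicate), with adjusted p from 0.05 to 0.12. Of these 9, the actin ratio as a covariate left LEP, bZIP44, AZG1 and BIK1 called. LEP, bZIP44, AZG1 and BIK1 lost their calls when the second actin ratio took its place (adjusted p = 0.17, 0.072, 0.074 and 0.12). AZG1 and BIK1 were also not called with only the compared arrays (0.096 and 0.1) or without both outlying arrays (0.14 and 0.16).

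Between estradiol and trans-zeatin at 12 h the largest change, that of 257039_at, was the 1 called difference. The comparison of trans-zeatin with control uses the same control arrays, so the treatments were compared directly. In the direct test 1 probe set of 15605 (0.00641%) was called, 257039_at, which was higher with estradiol by 6.30 on the log2 scale (95% interval 5.75 to 6.85, adjusted p = 1.1e-08); limma gave 1322 probe sets an unadjusted p under 0.05. RR16 had 105, 59.2 and 79.4 with estradiol, against 66.1 and 76.8 with trans-zeatin, a difference of 0.14 (-0.40 to 0.68). ATC had 15, 39.5 and 67.5 with estradiol, against 75.5 and 21.2 with trans-zeatin (-0.19, interval -1.30 to 0.93), and AT4G11190 had 936, 1130 and 812 with estradiol, against 747 and 1210 (0.00, interval -0.98 to 0.98). In these 3 genes the arrays of the treatments overlap. AT5G10130 had 31.6, 35 and 34.5 with estradiol, against 15.9 and 14.9 with trans-zeatin. It was lower on every trans-zeatin array, by a difference of 0.88 (0.40 to 1.36) that was not called (adjusted p = 0.44). Over the 30 genes of largest change the differences ranged from -0.99 to 0.95, and 24 of the 30 intervals held 0, reaching from 0.45 to 1.26 to either side. These 30 genes, and all called probe sets, were chosen on the same estradiol 12 h arrays that enter the differences. That choice can shift the differences and their intervals. Of the 368 probe sets called higher, 271 had an interval within 1 log2 unit of 0, and of the 394 called lower 314. The share of all measured probe sets with such an interval was not counted, and their median interval reached 0.51 to either side. The difference had an unadjusted limma p under 0.05 in 58 of the 368 and 46 of the 394, beside 1322 of all 15605. Wider intervals leave differences of 2-fold possible.

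**Figure D4:**
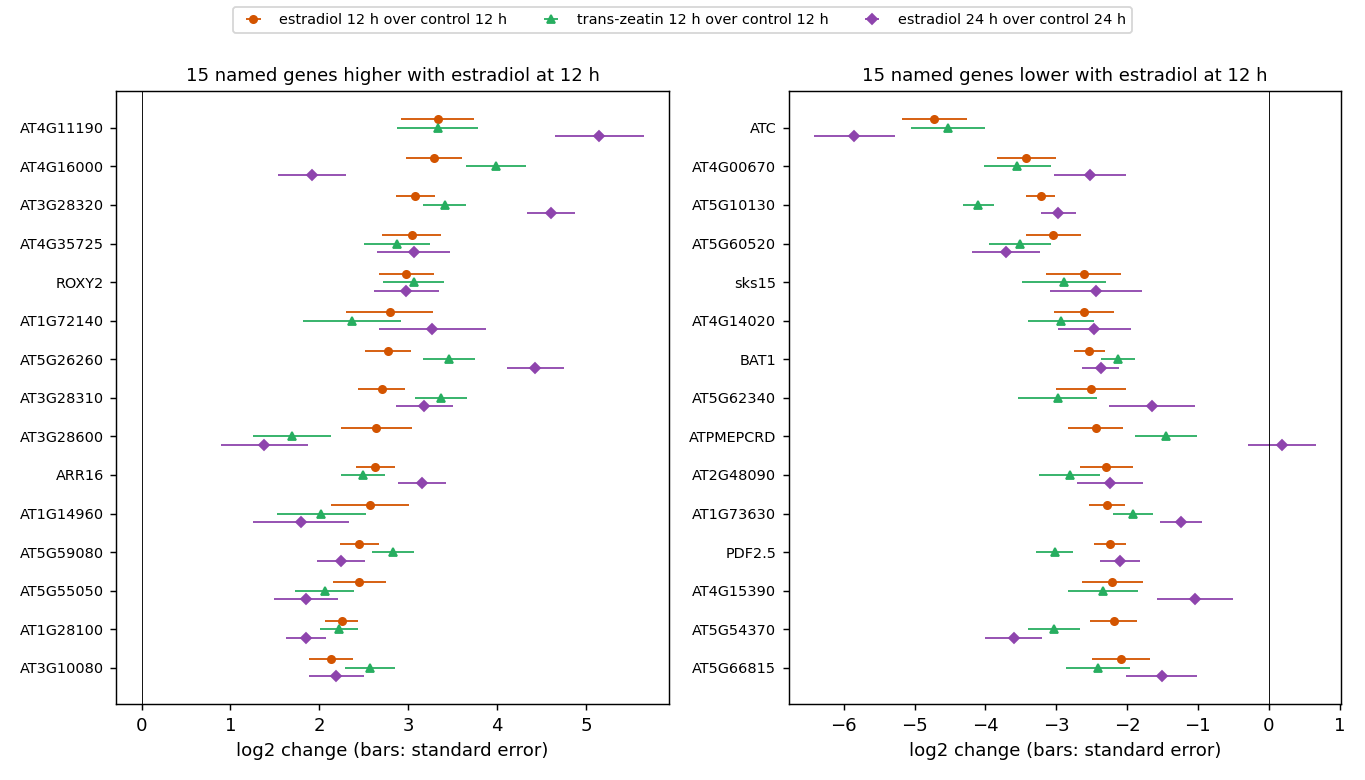
Log2 change, with its standard error as a bar, of the 30 named genes of largest change in 3 comparisons: estradiol 12 h against control 12 h, trans-zeatin 12 h against the same control arrays, and estradiol 24 h against control 24 h. ATC stands at -4.72, -4.53 and -5.85 in the 3 comparisons, and ATPMEPCRD at -2.44, -1.45 and 0.19.

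At 24 h of estradiol, measured on other arrays, 356 probe sets were called higher (2.28%) and 239 lower (1.53%) against control 24 h. Of the 368 called higher at 12 h, 344 (93.5%) were also above control at 24 h, and 162 were called, which is 44% of the 12 h list and 45.5% of the 24 h list. Of the 394 called lower, 369 (93.7%) were also below control at 24 h, and 81 were called, 20.6% of the 12 h list and 33.9% of the 24 h list. Over all measured probe sets 63.4% had the same direction at both times, and no probe set was called in opposite directions. RR16 had 114 and 96.7 with estradiol at 24 h, against 7.17 and 5.25 in control 24 h, and ARR15 had 35.2 and 34, against 0.976 and 2.57. ATC had 10.8 and 14.5 with estradiol at 24 h, against 1280 and 918 in control 24 h. Each of the 3 was called at 24 h too, with log2 changes of 3.16, 2.35 and -5.85. Of the 30 genes of largest change at 12 h, 29 had the same direction at 24 h and 23 were called. The exception was ATPMEPCRD, with 28.6 and 94.3 with estradiol at 24 h, against 43.6 and 48 in control 24 h, which overlap.

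A direct test of whether the effect of estradiol differed between 24 h and 12 h called 12 probe sets (0.0769%), 4 of them higher at 24 h relative to 12 h and 8 lower; limma gave 1323 an unadjusted p under 0.05. AT1G11210 had 162, 128 and 109 with estradiol at 12 h, against 121, 116 and 126 in control 12 h, and 38.3 and 37.3 with estradiol at 24 h, against 196 and 199 in control 24 h. The arrays overlapped at 12 h and were far apart at 24 h, and the effects differed by -2.32 ± 0.33 (adjusted p = 0.012). AT4G33980 had 79.2, 80.2 and 88.7 with estradiol at 12 h, against 43.7, 57.7 and 53.2 in control 12 h, and 28.1 and 20.9 with estradiol at 24 h, against 124 and 67.6 in control 24 h (-2.31, adjusted p = 0.011). It was above control on every array at 12 h, without a call, and below control at 24 h. The call of AT1G11210 ended without any 1 of the 24 h arrays, estradiol replicate 1 or 2 or control replicate 1 or 2 (adjusted p from 0.051 to 0.11), and that of AT4G33980 without estradiol 24 h replicate 2 (0.071) or control 24 h replicate 1 (0.07). With the second actin ratio as a covariate neither was called (adjusted p = 0.17 and 0.49).

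**Figure D5:**
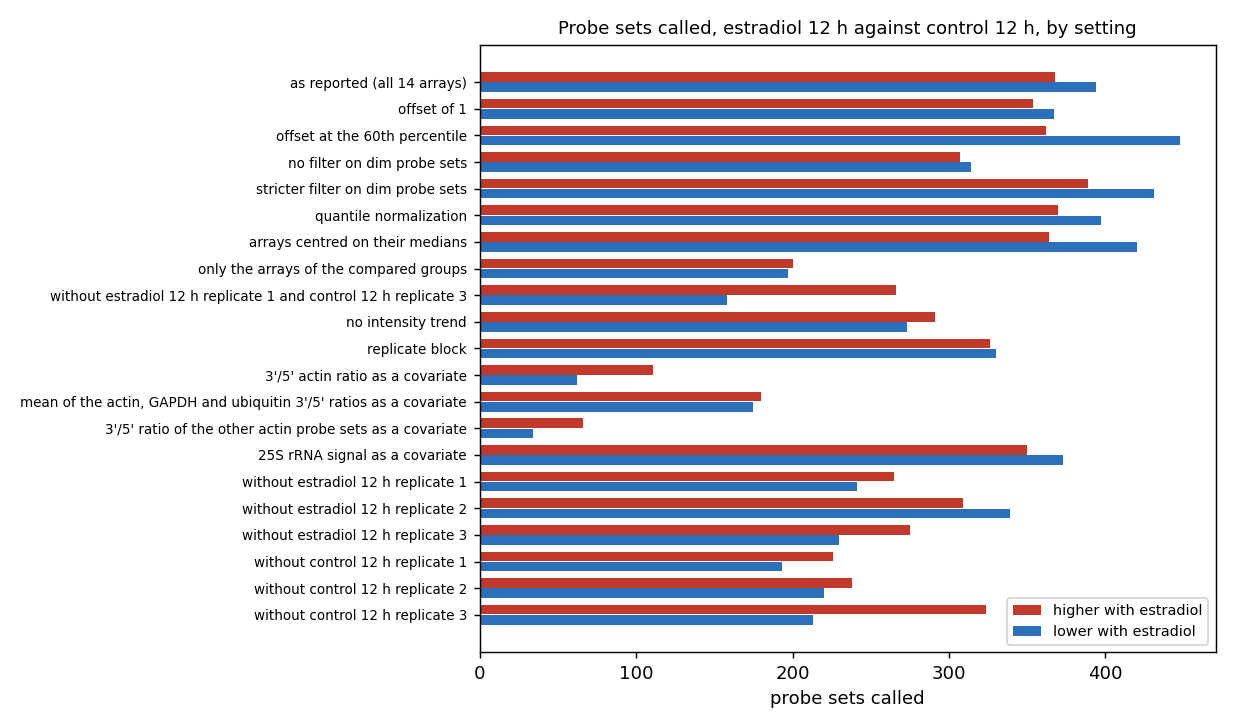
Number of probe sets called higher and lower, estradiol 12 h against control 12 h, under each processing setting. The count is 762 as reported, from 419 to 648 without 1 array, 173 with the actin 3'/5' ratio as a covariate and 100 with the ratio of the second actin pair.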

How the data were processed

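RNA of 14 root tip samples was hybridised to Affymetrix ATH1 arrays, each to an array of its own. The table the authors deposited gives signal intensity on a linear scale for 22810 probe sets; MAS5 and GCOS are named in the submitters' processing notes, without a version or setting. The mean of each array after trimming 2% at each end was 100, so no further scaling was applied. Of the probe sets, 13513 pair with 1 gene, 503 with several and 8730 with none in the platform annotation, and 64 are controls, left out of the tests. Names come from that annotation and a gene table of TAIR10.1; no build is given, so no coordinates are printed. Family names of genes printed by locus are background knowledge of those loci.

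The deposited signals were increased by 6.3 and taken to log2. Probe sets above 23 (the 40th percentile) on at least 2 arrays were kept, 15605 in all. The 6 group means were fitted together on the 14 arrays in limma 3.58.1 (R 4.3.3), with eBayes following an intensity trend; residual degrees of freedom were 8 and prior ones 5.96. Tests were two-sided with Benjamini-Hochberg adjustment over all probe sets kept, errors are SE, and the procedure was tested on simulated data. The number of arrays limits the precision. Same-numbered arrays of estradiol 12 h and control 12 h did not deviate together (3 pairs, r from -0.148 to 0.085), so numbers were not used as pairs.

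The members and the gene lists were chosen with earlier results of these data known, and 6 lists (ribosomal proteins, ribosome assembly, peroxidases, terpene synthases, strictosidine synthase-like, NPF) were added after those results. Named genes are the 15 higher and 15 lower called probe sets of largest fold with 1 gene and no overlap of arrays, up to 4 genes of lowest p from each list with a called member, the 2 higher and 2 lower unnamed probe sets of largest fold, and up to 5 each way for the direct tests; 24 further genes were named after their values were seen. The actin pair used for the 3'/5' ratio was chosen after its values were seen, and the other pair is an alternative. Alternatives were the offset, the filter, quantile normalization, median centring, the arrays in the fit, the intensity trend, a replicate block, RNA quality covariates and leaving out each array; promoter sequences were not used here.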

Additional observations from a re-analysis of the deposited data

Results flagged for a closer look

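The effect of estradiol against the control of the same time differed between 24 h and 12 h for 12 probe sets (interaction term, limma, adjusted p under 0.05). AT1G11210 (difference of the log2 effects -2.32) and AT4G33980 (-2.31) are described above, and the other 10 have no gene named here. For 267364_at the difference was -4.26: it had 462, 383 and 602 with estradiol at 12 h, against 240, 343 and 230 in control 12 h, and 31.9 and 19.9 with estradiol at 24 h, against 418 and 273 in control 24 h. For 263548_at it was -1.72: the signals were 1600, 1320 and 1470 with estradiol at 12 h, against 2390, 2010 and 1930 in control 12 h, and 820 and 704 with estradiol at 24 h, against 3650 and 3610 in control 24 h. Estradiol lowered this probe set at both times, more at 24 h. Smaller signals and effects near 0 at 12 h stood behind 259990_s_at (-3.11; effect 0.3 at 12 h and -2.8 at 24 h), 261613_at (-2.23; 0.18 and -2.04), 257985_at (-1.53; 0.00 and -1.53) and 252475_s_at (-1.51; 0.37 and -1.14).

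For 4 probe sets the effect was more positive at 24 h. The difference was 4.46 for 261569_at, which had 16.8, 39 and 19.2 with estradiol at 12 h, against 74.2, 66.6 and 45.2 in control 12 h, and 155 and 168 with estradiol at 24 h, against 19.6 and 5.04 in control 24 h. It was 3.19 for 267002_s_at, with 22.5, 17.5 and 9.22 with estradiol at 12 h, against 63.7, 58.9 and 72.8 in control 12 h, and 544 and 1750 with estradiol at 24 h, against 307 and 383 in control 24 h. It was 2.93 for 250207_at, with 2800, 3340 and 2160 with estradiol at 12 h, against 1230, 910 and 2150 in control 12 h, and 613 and 585 with estradiol at 24 h, against 35.5 and 30.8 in control 24 h. It was 1.9 for 251962_at, with 515, 622 and 390 with estradiol at 12 h, against 672, 724 and 913 in control 12 h, and 1330 and 1380 with estradiol at 24 h, against 534 and 560 in control 24 h.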

How the results depend on the processing

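The 762 calls of estradiol 12 h against control 12 h numbered from 419 to 648 without 1 array, 397 with only the compared arrays, 424 without both outlying arrays, 173 with the actin 3'/5' ratio as a covariate, 355 with the mean of 3 such ratios and 100 with the other actin pair. The last 2 covariates and 25S rRNA were added after seeing the data, and the actin pair behind the 173 was chosen after its values were seen. The other settings left from 564 (no intensity trend) to 820 calls (stricter filter), and 656 with a replicate block, which ended 7 of the 96 named calls. Estradiol 12 h against trans-zeatin 12 h had 1 call, 2 with no filter, 2 without both arrays, 3 with the mean of 3 ratios and from 1 to 5 without 1 array. The interaction had 12 calls, 11 with a replicate block, from 3 to 20 without 1 array, 30 with the mean of 3 ratios, 19 with 25S rRNA as a covariate and, by limma, 0 with the other actin pair (820 at an unadjusted p under 0.05). The actin ratio differed by -0.24 as the mean of 3 genes and by -0.68 in the other pair. The cause of these shifts was not tested. Leaving out an array changes both the number of arrays and which arrays enter the fit. Of the 96 named calls 60 held without each array in turn, and no named value reversed. With the actin ratio as a covariate 44 of the 96 were still called, with the mean of 3 ratios 59 and with the other actin pair 28. Groups of 2 or 3 arrays limit all counts, and signals near the offset have folds that understate their ratios.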

Other observations

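Of 2877 pairs of measured genes that neighbour each other along a chromosome, 9 pairs had both genes called at 12 h, 8 of them in the same direction. Singly, 177 of the 8527 measured probe sets with 1 gene named rose and 205 fell. The 5 pairs that rose together were AT3G28310 with AT3G28320, AT3G57010 with AT3G57020, JAL33 with JAL34, AT5G38020 with AT5G38030 and AT1G23330 with AT1G23340. The 3 that fell together were AT1G73620 with AT1G73630, AT5G60520 with AT5G60530 and AT1G26450 with AT1G26460. AT5G38030 had 366, 379 and 267 with estradiol, against 137, 130 and 149 in control (2.35-fold, adjusted p = 0.0014), and AT5G60530 had 70.4, 75.9 and 104 with estradiol, against 142, 136 and 234 in control (1.94-fold lower, adjusted p = 0.034). In 1 pair the genes moved apart: AT5G59080 had a log2 change of 2.45 and AT5G59070 of -1.89. The calls of AT5G38020, AT5G60530 and AT5G59070 ended without 1 array each of several (adjusted p from 0.059 to 0.13). No test of neighbouring was made, so whether 9 pairs exceed what calls independent of position would give was not tested. Whether the probes of a pair bind both transcripts was not tested either.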
